A study of Canis lupus familiaris with 13 samples.

Results

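Genes that carry long-chain fatty acids into mitochondria, oxidise them there, or uncouple respiration from ATP synthesis were examined in 13 RNA-seq libraries of dog skeletal muscle. The members were taken by symbol, CPT1A, CPT1B, CPT2, SLC25A20, ACADVL, ACADM, HADHA, HADHB, UCP2 and UCP3, and 9 of these 10 were found, each on 1 row of the deposited table of 30951 genes. HADHB was not matched to a row by its symbol and is not analysed here. All 9 were among the 14629 genes that passed the filter on low counts.

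Long-chain fatty acids cross the mitochondrial membranes as carnitine esters. Carnitine palmitoyltransferase 1 on the outer membrane makes the ester and is inhibited by malonyl-CoA, a product of the fed state, SLC25A20 carries the ester through the inner membrane, and CPT2 restores the acyl-CoA in the matrix. Acyl-CoA dehydrogenases then start each round of beta-oxidation, the trifunctional protein built from HADHA and HADHB completes it for long chains, and UCP2 and UCP3 are carriers of the inner membrane, UCP3 being found mainly in skeletal muscle.

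The biopsies came from biceps femoris, a thigh muscle, of 4 wild-type dogs aged 9 to 10 months, were collected under local anaesthesia and were frozen at once. The 3 basal libraries, which carry sample number 0, came from dogs 2, 3 and 4, and the 10 insulin-stimulated libraries were sample 1 of all 4 dogs, sample 2 of all 4 dogs and sample 3 of dogs 1 and 2. The insulin dose, the time of each biopsy and the meaning of the sample number are not in the labels, and samples 1, 2 and 3 of a dog are repeated biopsies of the same animal. Every insulin biopsy of dogs 2 to 4 follows sample 0 in number, so insulin and the order of the biopsies cannot be told apart.

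Library totals ran from 45200416 to 81948641 counts. All 6 muscle fibre markers were measured, and the muscle actin ACTA1 alone took 10.4% to 13.7% of the counts in 12 libraries. Sample 2 of dog 1 stood apart, with 18.4% of its counts in ACTA1 and a mean r of 0.931 across genes with the remaining libraries, lower than that of any other library. Basal sample 0 of dog 3 had the highest summed markers of several other cell types: its fibroblast markers summed to 2015 CPM (counts scaled to a library total that is adjusted by the trimmed mean of M values, TMM), against 194 to 776 in the other 12 libraries. Its 6 measured adipocyte markers summed to 97.2 CPM against 19.4 to 54.7, and its 6 macrophage and monocyte markers to 47.9 CPM against 7.31 to 32.7. In these whole-muscle samples fewer cells of a type and less RNA per cell cannot be told apart.

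The main difference in the set was between CPT1A and UCP3 and the rest. Both were lower in each of the 10 insulin libraries than in each of the 3 basal libraries, whereas the other 7 genes overlapped between the groups. Neither difference passed the adjusted threshold of 0.05 in edgeR's quasi-likelihood test with the dog as a block, and both passed it in DESeq2. Both tests treat repeated libraries of a dog as independent given the dog, and only 3 dogs have a basal library. Of all genes tested, 0.137% were called in that edgeR comparison (20 of 14629), 0.0273% higher and 0.109% lower, and 0 of the 9 members were among them. DESeq2 called 2 of 9 members beside 0.576% of all genes with an adjusted p, and edgeR without the filter on low counts 2 of 9 beside 0.555%. Among all genes, 0.608% had every insulin library below every basal one, against 2 of 9 members, and 0.321% had every insulin library above, against 0 of 9.

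Markers of some other cell types, but not of all, had lower fitted levels under insulin, as CPT1A and UCP3 had. Endothelial markers were higher in 4 of 6, with a median log2 fold change of 0.14. Lymphocyte markers were lower in 3 of 5 and adipocyte markers in 4 of 6, each list with a median of -0.07. Satellite cell markers were lower in 2 of 3, with a median of -0.30. All 5 measured neutrophil markers had a lower fitted level under insulin, with a median log2 fold change of -1.44. By edgeR, 4 of them had an unadjusted p under 0.05, beside 4.12% of all genes tested, and 0 were called. The neutrophil markers summed to 31.9 to 74.3 CPM in the basal libraries and 23.5 to 65.7 CPM in the insulin libraries. The 3 red blood cell markers that were tested, of 5 measured, were also lower, with a median of -1.89, 1 of them at an unadjusted p under 0.05 and 0 called, and the 5 summed to 1.74 to 3.903 CPM at basal and 0.750 to 2.11 CPM under insulin. Fibroblast markers had lower fitted levels in 5 of 5 and macrophage and monocyte markers in 5 of 6. Their medians were -0.34 and -0.47, with 0 called in either list. In dog 4 the fibroblast sum rose from 194 CPM at basal to 259 and 457 CPM in samples 1 and 2. Its macrophage and monocyte sum rose from 11.2 to 18.6 and 27.0 CPM. In dog 2 the fibroblast sum was 521 CPM at basal and 645, 319 and 634 CPM in samples 1 to 3. In dog 3 it fell from 2015 to 553 and 404 CPM, and the macrophage and monocyte sum from 47.9 to 17.6 and 9.64 CPM. The part of these cell types in the CPT1A and UCP3 values was not tested.

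**Figure D1:**
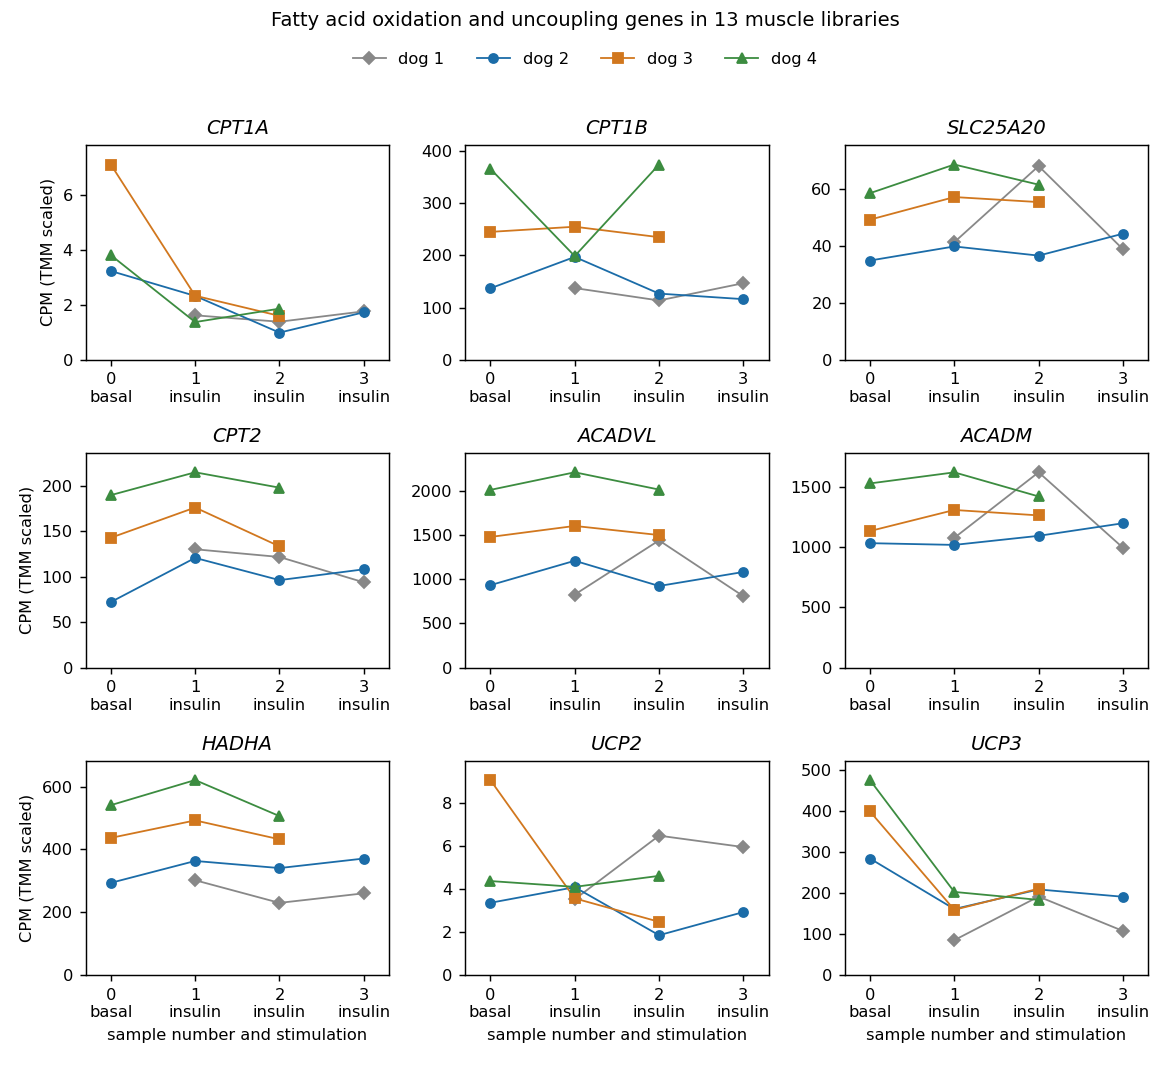
Each panel plots 1 gene's level in CPM (vertical axis, starting at 0) against the sample number and stimulation (horizontal axis), with 1 point for each of the 13 libraries and a line joining the libraries of a dog. In the CPT1A and UCP3 panels the 3 basal points lie above all 10 insulin points, and in the HADHA panel dog 1 runs from 230 to 302 CPM and dog 4 from 506 to 621 CPM.

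CPT1A (ENSCAFG00000010757) is the form of the outer membrane transferase that liver uses and that many other cells also express. Its basal level was 3.23 CPM in dog 2, 7.11 in dog 3 and 3.81 in dog 4. In sample 1 it was 1.62, 2.33, 2.33 and 1.37 CPM in dogs 1 to 4, in sample 2 it was 1.38, 0.987, 1.60 and 1.86 CPM, and in sample 3 it was 1.76 and 1.73 CPM in dogs 1 and 2. The basal library of dog 3 was the highest of all and sample 2 of dog 2 the lowest, and all insulin libraries were below the lowest basal one. These are small numbers of reads: the lowest library held 54 counts, with an exact Poisson 95% interval of 40.6 to 70.5 that covers counting error only, and the highest held 482.

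The group means of CPT1A were 4.72 ± 2.09 CPM at basal (SD, n = 3) and 1.70 ± 0.415 CPM under insulin (SD, n = 10). The fitted log2 fold change of insulin against basal was -1.35 ± 0.28 (SE), or 0.393 times the basal level, with an adjusted p of 0.110 by edgeR and rank 41 by p among all genes tested. DESeq2 gave -1.34 with an adjusted p of 0.00270, and edgeR without the filter on low counts gave an adjusted p of 0.00532. Within dogs, the mean insulin level was below the basal level by a log2 difference of -0.94 in dog 2, -1.86 in dog 3 and -1.24 in dog 4. All 7 insulin libraries of these dogs were below their own basal library, as were those of 3.44% of all genes tested. Without the basal library of dog 3, in which markers of several other cell types were highest, the fold change was -1.07 and the adjusted p 0.677 by edgeR. Over the 17 fits that each left out a library or a dog, the adjusted p ran from 0.0713 to 0.881.

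CPT1B (ENSCAFG00000000586), the muscle form of the same transferase, did not follow CPT1A. Its basal level was 137 CPM in dog 2, 245 in dog 3 and 366 in dog 4. Under insulin it was 137, 197, 255 and 199 CPM in sample 1 of dogs 1 to 4, 114, 127, 235 and 374 CPM in sample 2, and 147 and 116 CPM in sample 3 of dogs 1 and 2. The groups overlapped widely, and dog 4 alone spanned 199 CPM in sample 1 to 374 CPM in sample 2. The fitted log2 fold change was -0.08 ± 0.21 (edgeR, adjusted p = 1), and 4 of 7 insulin libraries were below their own basal library. Its sign turned positive without the basal library of dog 4, at 0.05.

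The ratio of CPT1A to CPT1B read counts can be followed from library to library, although it says nothing of the relative amounts of the 2 transcripts because their lengths are not used. On the log2 scale it was -5.40, -5.11 and -6.59 in the basal libraries of dogs 2, 3 and 4. Under insulin it was -6.41, -7.01 and -6.07 in samples 1 to 3 of dog 2, -6.77 and -7.20 in samples 1 and 2 of dog 3, and -7.18 and -7.65 in samples 1 and 2 of dog 4. Each insulin library was thus below the basal library of its own dog, in 7 of 7 cases. The group means were -5.70 ± 0.78 (SD, n = 3) and -6.74 ± 0.50 (SD, n = 10), and the groups overlapped because the basal ratio of dog 4 lay within the insulin range.

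**Figure D2:**
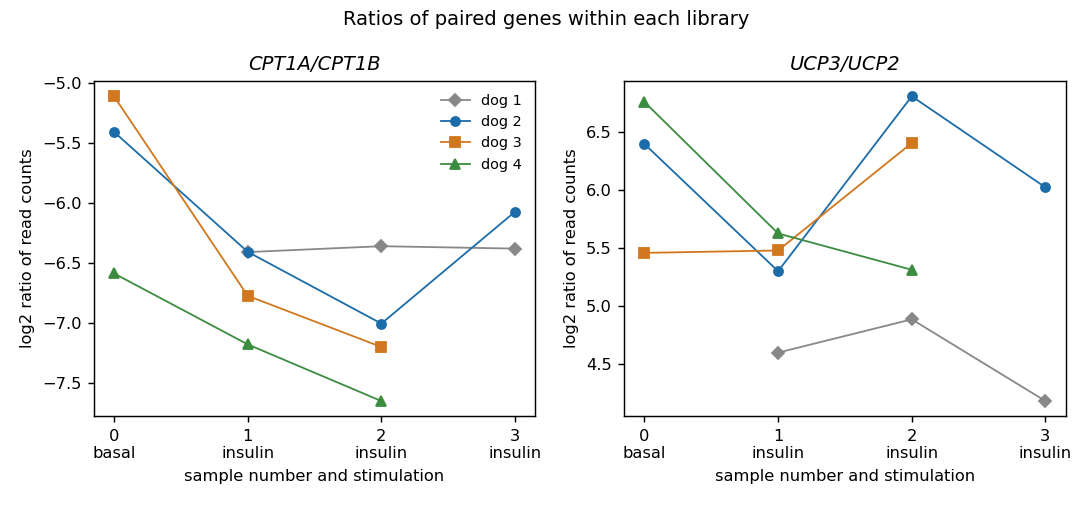
The log2 ratio of read counts within each library (vertical axis) is plotted for CPT1A over CPT1B and for UCP3 over UCP2 against sample number and stimulation (horizontal axis), with 1 line per dog. The CPT1A to CPT1B ratio is lower under insulin than at basal in dogs 2, 3 and 4, and the UCP3 to UCP2 ratio shows no common direction.

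SLC25A20 (ENSCAFG00000012076), the carnitine and acylcarnitine carrier, was slightly higher under insulin within each dog that has a basal library. Its basal levels were 34.9, 49.3 and 58.6 CPM in dogs 2, 3 and 4. Sample 1 gave 41.4, 39.9, 57.3 and 68.7 CPM in dogs 1 to 4, sample 2 gave 68.2, 36.6, 55.5 and 61.6 CPM, and sample 3 gave 38.9 and 44.4 CPM in dogs 1 and 2. All 7 insulin libraries exceeded their own basal library, by log2 differences of 0.07 to 0.35, and 2.69% of all genes tested had that pattern. The groups as a whole overlapped, and the fitted log2 fold change was 0.19 ± 0.17 (edgeR, adjusted p = 1).

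CPT2 (ENSCAFG00000019174), the inner membrane transferase, was 72.1, 143 and 190 CPM at basal in dogs 2, 3 and 4. Its insulin levels were 130, 121, 176 and 215 CPM in sample 1 of dogs 1 to 4, 122, 96.2, 133 and 198 CPM in sample 2, and 93.8 and 108 CPM in sample 3 of dogs 1 and 2. In 6 of 7 insulin libraries it was above the dog's own basal level, sample 2 of dog 3 being the exception, and the groups overlapped. The fitted log2 fold change was 0.28 ± 0.17 (edgeR, adjusted p = 1).

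The acyl-CoA dehydrogenases were the most heavily counted members, and neither differed between basal and insulin beyond its spread. ACADVL (ENSCAFG00000016016), which acts on very long chains, was 933, 1479 and 2012 CPM at basal in dogs 2, 3 and 4, and had a lowest, median and highest level of 807, 1325 and 2212 CPM over the 10 insulin libraries. Its fitted log2 fold change was 0.12 ± 0.19 (edgeR, adjusted p = 1). The group means pointed the other way, 1475 ± 540 CPM at basal (SD, n = 3) and 1362 ± 486 CPM under insulin (SD, n = 10). Dog 1, with 826, 1440 and 807 CPM in samples 1 to 3, has no basal library and so enters only the insulin mean.

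ACADM (ENSCAFG00000020393), the medium-chain enzyme, was 1031, 1132 and 1526 CPM at basal in dogs 2, 3 and 4. Under insulin it ran from 993 to 1619 CPM, a range that contains all basal values. The group means were 1230 ± 262 CPM (SD, n = 3) and 1260 ± 231 CPM (SD, n = 10), and the fitted log2 fold change was 0.09 ± 0.17 (edgeR, adjusted p = 1).

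HADHA (ENSCAFG00000004267), the alpha subunit of the trifunctional protein, was 294, 437 and 541 CPM at basal in dogs 2, 3 and 4. Sample 1 gave 302, 364, 492 and 621 CPM in dogs 1 to 4, sample 2 gave 230, 341, 432 and 506 CPM, and sample 3 gave 261 and 371 CPM in dogs 1 and 2. The order of the dogs was the same in samples 1 and 2, with dog 1 lowest and dog 4 highest, and each dog's sample 1 was above its sample 2. The fitted log2 fold change of insulin against basal was 0.15 ± 0.14 (edgeR, adjusted p = 1).

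UCP3 (ENSCAFG00000042759), the uncoupling protein of skeletal muscle, was lower under insulin in every dog with a basal library. Its basal levels were 284 CPM in dog 2, 399 in dog 3 and 475 in dog 4. Sample 1 gave 85.5, 161, 159 and 203 CPM in dogs 1 to 4, sample 2 gave 192, 209, 211 and 184 CPM, and sample 3 gave 108 and 191 CPM in dogs 1 and 2. The basal libraries were all above the highest insulin library, and the spread between dogs 2, 3 and 4 was wider at basal than in samples 1 and 2.

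The group means of UCP3 were 386 ± 96.1 CPM at basal (SD, n = 3) and 170 ± 42.9 CPM under insulin (SD, n = 10). The fitted log2 fold change was -1.0003 ± 0.22 (SE), or 0.4999 times the basal level, with an adjusted p of 0.154 by edgeR and rank 49 by p. DESeq2 gave -0.99 with an adjusted p of 0.0236, and edgeR without the filter on low counts gave an adjusted p of 9.67e-05. Within dogs, the log2 difference of the mean insulin level from basal was -0.60 in dog 2, -1.11 in dog 3 and -1.30 in dog 4, and 7 of 7 insulin libraries were below their own basal library. Without sample 2 of dog 1, the library with the highest share of ACTA1, the fold change was -0.9988 and the edgeR adjusted p was 0.0206. Without the basal library of dog 3 it was -0.94 with an adjusted p of 0.612. The fold change ran from -1.20 to -0.84 over the 17 fits that each left out a library or a dog. UCP3 counts ran from 5651 to 27028, so counting error was small beside the spread between libraries.

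UCP2 (ENSCAFG00000005564), the widely expressed uncoupling protein that immune cells also make, was low, at 102 to 616 counts. Its basal levels were 3.38, 9.09 and 4.39 CPM in dogs 2, 3 and 4. Sample 1 gave 3.54, 4.10, 3.58 and 4.12 CPM in dogs 1 to 4, sample 2 gave 6.50, 1.87, 2.49 and 4.63 CPM, and sample 3 gave 5.97 and 2.94 CPM in dogs 1 and 2. Only the basal library of dog 3 stood above the insulin libraries, and the log2 difference of the mean insulin level from basal was -0.18 in dog 2, -1.58 in dog 3 and -0.00 in dog 4. The fitted log2 fold change of -0.63 ± 0.33 (edgeR, adjusted p = 1) became -0.09 without that library. The macrophage and monocyte markers of that library (47.9 CPM) and its 5 measured neutrophil markers (74.3 CPM, against 23.5 to 65.7 in the other libraries) were the highest of the 13, and no list had a marker at 0 in all libraries. Their part in the UCP2 difference was not tested.

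The log2 ratio of UCP3 to UCP2 read counts was 6.40, 5.46 and 6.76 in the basal libraries of dogs 2, 3 and 4. Under insulin it ran from 4.18 in sample 3 of dog 1 to 6.81 in sample 2 of dog 2. In dog 4 both insulin libraries (5.62 and 5.31) were below the basal one, in dog 3 both were above it (5.48 and 6.40), and in dog 2 they lay on either side. The ratio therefore had no common direction across dogs.

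**Figure D3:**
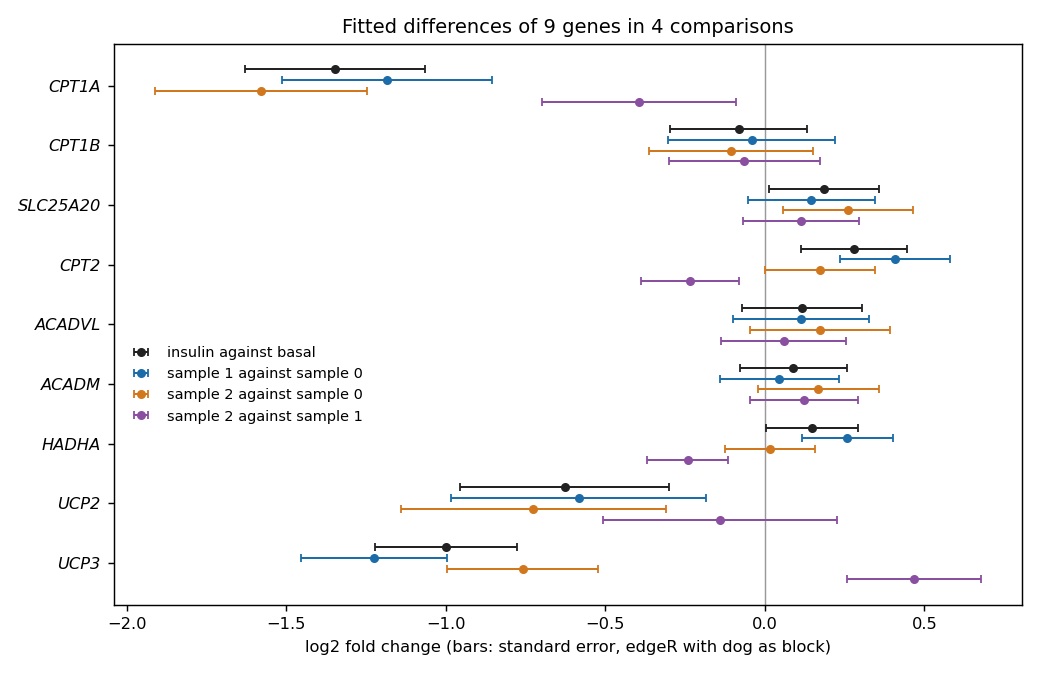
Fitted log2 fold changes of the 9 genes (horizontal axis) with their standard errors (bars) are shown for insulin against basal, sample 1 against 0, sample 2 against 0, and sample 2 against 1, from edgeR with the dog as a block. CPT1A and UCP3 lie between -0.76 and -1.58 in the 3 comparisons with basal, and the 6 genes other than CPT1A, UCP2 and UCP3 lie between -0.11 and 0.41 there.

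The sample numbers were next compared separately with basal. Samples 1 and 2 share the same 3 basal libraries, so the 2 comparisons are not independent and their values are given side by side. In sample 1 against sample 0, 0% of genes tested were called by edgeR and 2.99% had an unadjusted p under 0.05 (438 genes). Of the 9 members, 0 were called and 3 had an unadjusted p under 0.05. In sample 2 against sample 0, 0.0479% were called (7 genes, 0.0137% higher and 0.0342% lower) and 4.95% had an unadjusted p under 0.05, with 0 and 2 members respectively. For insulin against basal as a whole the unadjusted share was 4.12%, with 2 of 9 members, CPT1A and UCP3.

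CPT1A had a log2 fold change of -1.18 ± 0.33 in sample 1 (edgeR, adjusted p = 0.898) and -1.58 ± 0.33 in sample 2 (adjusted p = 0.252). UCP3 had -1.23 ± 0.23 in sample 1 (adjusted p = 0.223) and -0.76 ± 0.24 in sample 2 (adjusted p = 0.754). The larger of each gene's values was thus in a different sample. DESeq2 called UCP3 in sample 1 (adjusted p = 0.00347), beside 0.305% of all genes with an adjusted p, but not CPT1A (adjusted p = 0.109). In sample 2 it called CPT1A (adjusted p = 0.00158), beside 0.573% of all genes. Without the filter on low counts edgeR called UCP3 in sample 1 (adjusted p = 0.00365), beside 0.0635% of all genes, and 0 members in sample 2, beside 0.111%, or in sample 2 against sample 1. DESeq2 called 0 members in sample 2 against sample 1, beside 0.381% of all genes. CPT2 was the third member with an unadjusted p under 0.05 in sample 1, at 0.41 ± 0.17 (edgeR, unadjusted 0.0381, adjusted p = 1), and was at 0.17 ± 0.17 in sample 2.

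The difference between samples 2 and 1 was tested directly over all 4 dogs, dog 1 included. Here 0% of all genes were called by edgeR, 3.38% had an unadjusted p under 0.05, and 0 of 9 members were called. UCP3 was higher in sample 2 by a log2 fold change of 0.47 ± 0.21 (edgeR, unadjusted 0.0484, adjusted p = 0.902). It was higher in 3 of 4 dogs, at 1.16 in dog 1, 0.37 in dog 2 and 0.40 in dog 3, and lower in dog 4 at -0.14. Without sample 2 of dog 1 the fitted value was 0.22 (unadjusted 0.225, adjusted p = 1 by edgeR). CPT1A was at -0.39 ± 0.30 (adjusted p = 0.902) and lower in 3 of 4 dogs. The different size of the CPT1A and UCP3 values in samples 1 and 2 did not pass the adjusted threshold for either gene.

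HADHA and CPT2 were lower in sample 2 than in sample 1 in 4 of 4 dogs, a pattern that 6.34% of all genes tested had, and 0 of 9 members were higher in all 4, as 6.9% of all genes were. For HADHA the log2 differences were -0.39, -0.09, -0.19 and -0.29 in dogs 1 to 4, with a fitted value of -0.24 ± 0.13 (edgeR, adjusted p = 0.902). For CPT2 they were -0.10, -0.33, -0.40 and -0.12, with a fitted value of -0.23 ± 0.15 (adjusted p = 0.902). SLC25A20, ACADVL and ACADM were higher in sample 2 than in sample 1 of dog 1 by 0.72, 0.80 and 0.59, while in dogs 2 to 4 they lay between -0.39 and 0.10. Sample 2 of dog 1 also had the highest summed mitochondrial content genes, 21275 CPM against 12577 to 18578 in the other 12 libraries, and its part in these values was not tested.

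Differences between dogs were examined next. Over the same model, the terms for dog passed the adjusted threshold in edgeR for 4.2% of all genes tested (614 genes) and for 4 of 9 members, CPT1B, CPT2, ACADVL and HADHA. This test was added after the data were seen, and its p-values rest on repeated libraries of 4 dogs. The call depended on the libraries and on the model. EdgeR called 0 of 9 members from samples 1 and 2 alone or without dog 4. It called 2 of 9, CPT2 and HADHA, in the model of sample number. Fewer of all genes were also called from samples 1 and 2 alone and without dog 4. Without dog 4 it was 310 genes, against 614 over all 13 libraries, so the loss of calls was not particular to the members. A dog cannot be told apart from whatever was particular to the handling of its samples.

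HADHA averaged 266, 352, 462 and 563 CPM over samples 1 and 2 in dogs 1 to 4 (adjusted p for dog over all 13 libraries = 0.00679, edgeR, and 0.142 from samples 1 and 2 alone). CPT2 averaged 126, 108, 155 and 207 CPM (adjusted p = 0.0113, and 0.204 from those samples alone), ACADVL 1133, 1066, 1552 and 2114 CPM (0.0216 and 0.359), and CPT1B 126, 162, 245 and 287 CPM (0.0217 and 0.353). Over all its libraries HADHA ran from 230 to 302 CPM in dog 1, 294 to 371 CPM in dog 2, 432 to 492 CPM in dog 3 and 506 to 621 CPM in dog 4, so dogs 1 and 2 overlapped and dogs 3 and 4 did not overlap with any other. CPT1B overlapped between dogs 3 and 4, at 235 to 255 and 199 to 374 CPM, and between dogs 1 and 2, at 114 to 147 and 116 to 197 CPM.

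The other 5 members did not pass this test. SLC25A20 averaged 54.8, 38.3, 56.4 and 65.2 CPM over samples 1 and 2 in dogs 1 to 4 (adjusted p = 0.165, edgeR), and passed without sample 2 of dog 1 (adjusted p = 0.00864), in which it was 68.2 CPM against 41.4 and 38.9 CPM in that dog's other libraries. The adjusted p was 0.397 for ACADM, 0.425 for UCP2, 0.443 for UCP3 and 0.664 for CPT1A. UCP3 passed without sample 2 of dog 1 (adjusted p = 0.0437). CPT1A averaged 1.502, 1.66, 1.97 and 1.62 CPM over samples 1 and 2 in dogs 1 to 4. These means lay closer together than the 2 libraries of dog 2, at 2.33 and 0.987 CPM.

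**Figure D4:**
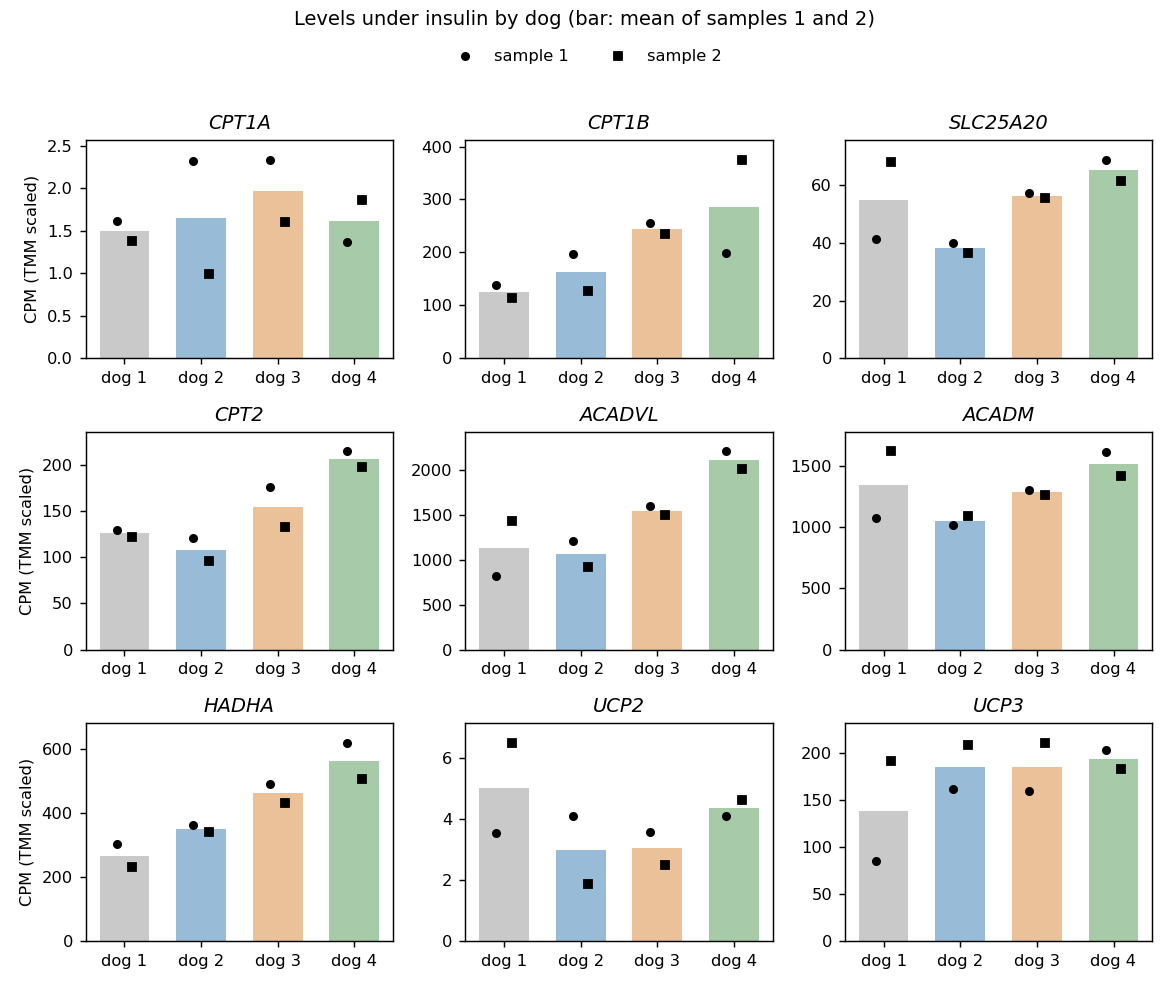
Bars give the mean CPM of samples 1 and 2 under insulin in each of the 4 dogs (vertical axis from 0), and points give the 2 libraries. The HADHA mean runs from 266 CPM in dog 1 to 563 CPM in dog 4, while the CPT1A mean stays between 1.502 and 1.97 CPM.

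Fibre markers also varied between dogs. Slow fibre markers summed to 14257 to 22233 CPM in dog 1, 14955 to 27086 CPM in dog 2, 22668 to 26139 CPM in dog 3 and 30037 to 36883 CPM in dog 4, all 6 being measured and 0 of 6 called between dogs. Of 7 fast fibre markers, 3 were called between dogs, the myosin heavy chains MYH1, MYH2 and MYH4. Of 11 mitochondrial content genes 0 were called, and the range of their sums in dog 1, 12577 to 21275 CPM, contained those of the other 3 dogs. Of 15 other enzymes of mitochondrial beta-oxidation 3 were called between dogs, ACAD9, ECI1 and DECR1. The part of fibre type in the members' levels was not tested.

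The genes around the 9 members were described from lists of the same pathway, 8 in number. None of 15 other mitochondrial beta-oxidation enzymes was called in insulin against basal. Their fitted values were close to 0, from -0.02 to 0.20 on the log2 scale, with 14 above 0, 1 below and a median of 0.09 beside -0.00 for all genes tested. Of all genes tested, 49.8% were above 0. Against sample 0, 9 of the 15 were above 0 in sample 1 and 13 in sample 2. HADH, which oxidises shorter hydroxyacyl-CoA, was at 0.20 ± 0.18, ECI1, an enoyl-CoA isomerase, at 0.20 ± 0.22, and ACAT1, a thiolase, at 0.13 (edgeR, adjusted p = 1 for each). The median of the 9 members themselves was 0.09. Of 11 mitochondrial content genes 0 were called and 9 were above 0, with a median of 0.05. UQCRC2, ATP5F1B and UQCRC1 were between 0.09 and 0.11.

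In the supply of acyl-CoA and carnitine, 0 of 9 genes were called. ACSL3, a long-chain acyl-CoA synthetase, was 17.0 ± 7.19 CPM at basal (SD, n = 3) and 7.91 ± 2.78 CPM under insulin (SD, n = 10), a fitted log2 fold change of -0.83 ± 0.26 (edgeR, adjusted p = 0.641). The value was -0.37 without the basal library of dog 4 and -1.27 without that of dog 2. Its relatives ACSL6 and ACSL5 were at -0.19 and 0.23. Of 11 genes of peroxisomal oxidation, a separate route for very long and branched chains, 0 were called, and their values ran from -0.19 to 0.16, with the transporter ABCD3 at 0.13, the thiolase ACAA1 at 0.15 and the oxidase ACOX3 at -0.19.

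Among 6 genes that set malonyl-CoA, the inhibitor of CPT1, 1 was called. MID1IP1, which promotes the activity of acetyl-CoA carboxylase, rose from 12.5 ± 5.85 CPM at basal (SD, n = 3) to 28.0 ± 2.56 CPM under insulin (SD, n = 10), a log2 fold change of 1.12 ± 0.20 (edgeR, adjusted p = 0.0478). The call held in 3 of the 17 fits that each left out a library or a dog, in which the fold change ran from 0.92 to 1.54. It was lost without the basal library of dog 3 (0.96, adjusted p = 0.358) and without that of dog 4 (0.92, adjusted p = 0.472). The carboxylases themselves, ACACA and ACACB, were at -0.04 ± 0.34 and -0.05 ± 0.38, and MLYCD, the decarboxylase that removes malonyl-CoA, was at 0.21 ± 0.15 (adjusted p = 1 for each). FASN, the fatty acid synthase that consumes malonyl-CoA, was at 0.20 ± 0.55.

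Of 13 PPAR and PGC-1 regulators, 0 were called by edgeR and 2 had an unadjusted p under 0.05. The list held nuclear receptors, coactivators and corepressors of genes of fatty acid oxidation, and KLF15. KLF15, a transcription factor of amino acid and lipid use, was at -1.04 ± 0.19 (edgeR, adjusted p = 0.0586). It was called by DESeq2 (adjusted p = 0.000365), by edgeR without the filter on low counts (adjusted p = 0.00546) and without sample 2 of dog 1 (adjusted p = 0.0335). PPARGC1A, the coactivator PGC-1 alpha, was at 0.67 ± 0.21 (adjusted p = 0.650). NRIP1, a corepressor, was at -0.50 ± 0.25, and at -0.79 and -0.16 without the basal libraries of dogs 3 and 4 in turn. PPARA, PPARD and PPARG were at 0.12, -0.10 and 0.18 (adjusted p = 1 for each).

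Of 7 tested PPAR targets outside beta-oxidation, 2 fell under insulin. PDK4, the kinase that shuts pyruvate dehydrogenase, was at -3.55 ± 0.37 (edgeR, adjusted p = 0.00187) and ANGPTL4, an inhibitor of lipoprotein lipase, at -2.74 ± 0.41 (adjusted p = 0.0217), and they passed in 17 and 9 of the 17 fits with a library or dog left out. Without the basal library of dog 3, ANGPTL4 was at -2.22 with an adjusted p of 0.220. Without that of dog 4 it was at -2.50 with an adjusted p of 0.277. The other 5 lay between -0.08 and 0.20, among them the fatty acid transporter CD36 at 0.11 and the lipid droplet protein PLIN5 at 0.20.

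Other carriers related to the uncoupling proteins were measured as well, and 0 of 6 were called by edgeR, 2 having an unadjusted p under 0.05. SLC25A30, a relative of the uncoupling proteins in kidney and other tissues, was 29.0 ± 8.16 CPM at basal (SD, n = 3) and 55.1 ± 8.65 CPM under insulin (SD, n = 10), at 0.88 ± 0.21 (edgeR, adjusted p = 0.204), the opposite sign to UCP3. It was called by DESeq2 (adjusted p = 0.0201), by edgeR without the filter on low counts (adjusted p = 0.00727) and without dog 2 (adjusted p = 0.0375). SLC25A27, also named UCP4 and known from brain, was 1.38 ± 0.414 CPM at basal (SD, n = 3) and 0.813 ± 0.308 CPM under insulin (SD, n = 10), at -0.82 ± 0.35 (adjusted p = 1). The adenine nucleotide carriers SLC25A4, the muscle form, and SLC25A5 were at 0.05 ± 0.18 and 0.26 ± 0.23 (adjusted p = 1 for each).

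**Figure D5:**
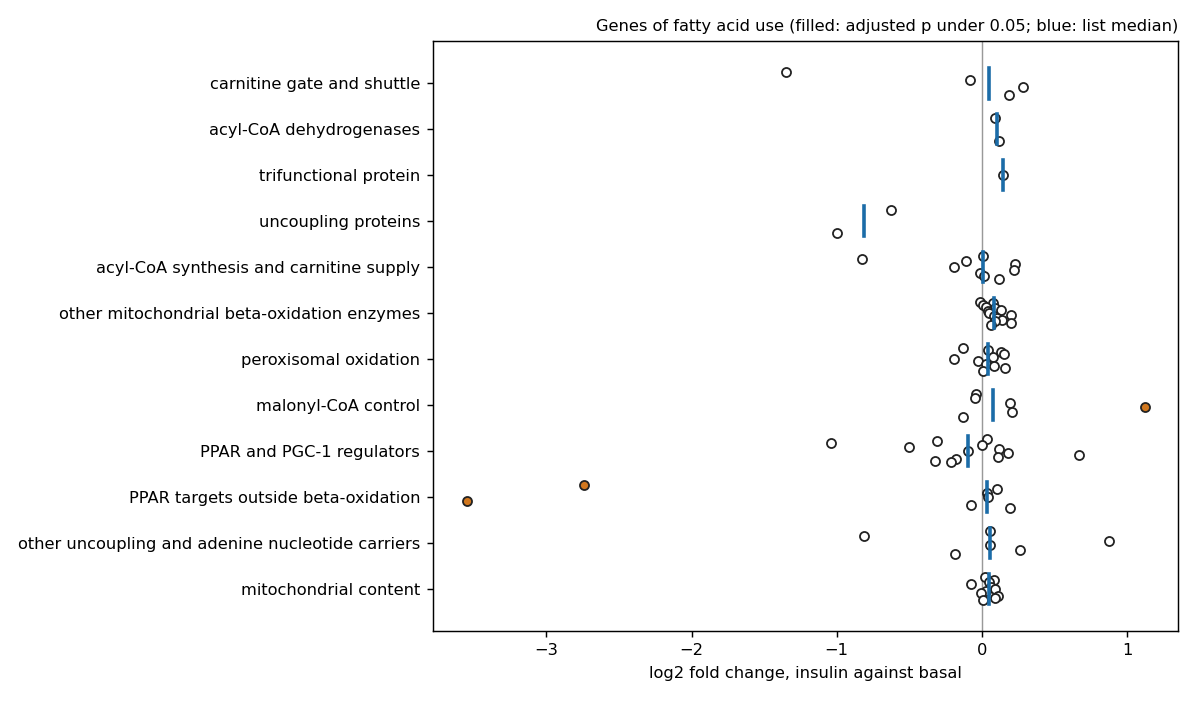
Each circle is a gene's fitted log2 fold change, insulin against basal (horizontal axis), in the members' 4 role groups and 8 further lists (rows), filled where edgeR's adjusted p was under 0.05, with a blue bar at the list median. MID1IP1, PDK4 and ANGPTL4 are the filled circles, and the medians of the 8 further lists lie between -0.10 and 0.09.

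The variation that members shared within dogs was described by correlating log2 CPM after removal of each dog's mean, over 13 libraries that share animals and scaling. Stimulation was not removed, so the r of genes that were lower under insulin, such as CPT1A and UCP3, includes that difference. SLC25A20 varied closely with ACADM (r = 0.944) and ACADVL (r = 0.930), and ACADVL with ACADM (r = 0.827), while CPT2 varied with HADHA (r = 0.676). Without sample 2 of dog 1, in which the first 3 genes were far above the dog's other libraries, these values were 0.761, 0.700, 0.221 and 0.884, so the likeness of ACADVL and ACADM rested on that library. Without it, HADHA varied with SLC25A20 (r = 0.792), ACADVL (r = 0.704) and ACADM (r = 0.687), against -0.101, -0.163 and -0.161 with it. CPT1A varied with UCP2 (r = 0.766) and UCP3 (r = 0.597), and its r with CPT1B was 0.422. Without the basal library of dog 3 these were 0.536, 0.395 and 0.565. HADHA and UCP3 went in opposite directions (r = -0.601, and -0.481 without sample 2 of dog 1).

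Among 8245 candidate genes, the pattern most like that of UCP3 belonged to SLC25A33, a mitochondrial pyrimidine nucleotide carrier (r = 0.932), and ARF4 (r = 0.926). For CPT1A it belonged to ABCC5 (r = 0.962) and SLC3A2, the heavy chain of amino acid transporters (r = 0.934). SLC25A20 was most like OXA1L, which inserts proteins into the inner mitochondrial membrane (r = 0.983), and MRPS5, a mitochondrial ribosomal protein (r = 0.972). CPT1B was most like TRIM65 (r = 0.933) and EWSR1 (r = 0.921), and CPT2 most like SLC22A3, an organic cation transporter (r = 0.956), and NOP2 (r = 0.928). ACADVL was most like DUS2 (r = 0.959) and EFNA1 (r = 0.958), ACADM like EIF2B1 (r = 0.981) and CBY1 (r = 0.981), and UCP2 like GLT8D2 (r = 0.937) and CHRDL1 (r = 0.935). HADHA had the lowest best matches, UEVLD (r = 0.849) and LSG1 (r = 0.841). Without sample 2 of dog 1 or without the basal library of dog 3, the r of these pairs was at least 0.791. The pairs were picked as the highest r among the 8245 candidates in these same libraries, with the difference between basal and insulin left in. Neither the r values nor the refits therefore test whether the genes are related.

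In the RefSeq annotation of another dog assembly, UU_Cfam_GSD_1.0, HADHA lies next to HADHB, and UCP2 and UCP3 are separated by 1 gene. CPT1A overlaps a long noncoding RNA, a pseudogene and a microRNA gene there, and ACADVL overlaps a microRNA gene. The library kit does not mark strand, so counts of CPT1A and ACADVL could include reads of these overlapping transcripts.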

How the data were processed

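The authors deposited raw counts per gene and library and a normalized signal, which equals the count divided by 1 size factor per library, the median of ratios. Per the submitters' processing notes, Bowtie 0.12.2 and CanFam3.1 were used. The counting program, annotation and strand setting are not given in the sources used here, and the kit (SMART-Seq with Nextera XT) does not mark strand. The series' design text describes mouse retina, so groups were taken from the sample labels. Only the counts were tested, in R 4.3.3 with edgeR 4.0.16: filterByExpr, TMM scaling, robust quasi-likelihood fits with dog as a block, and Benjamini-Hochberg adjustment over 14629 genes at 0.05. DESeq2 1.42.0 was an alternative. Scripts were tested on simulated counts without differences between dogs. In insulin against basal, edgeR called 33% of 100 genes changed by a log2 fold of 1. It called 66% of 100 genes changed by a log2 fold of 2, so a missing call does not show that a gene was unchanged. Each SE was obtained by dividing the fold change by the square root of F.

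Dog numbers in the labels were taken to name the same animal. The median correlation of deviations from group means was 0.178 in 15 same-dog pairs (lowest -0.0271) and -0.0552 in 47 pairs of different dogs. By this measure 11 of 13 libraries were most like a library of their own dog. Libraries of a dog were treated as independent given the dog. Dog 1, without a basal library, adds only to the spread in insulin against basal, and through its samples 1 to 3 to the fits by sample number. The 9 members and all lists were chosen with earlier results of these data known. By rule, each member was named, with the 3 genes of lowest p in each list and the 2 most like genes per member (mean log2 CPM above 1). ACACA, ACACB, the PPARs, CD36, SLC25A4 and the genes called between dogs were named outside it, after their values were seen.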

Additional observations from a re-analysis of the deposited data

How the results depend on the processing

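The members lacked a call in all 4 comparisons of edgeR, and this depended on the tool and the filter. In insulin against basal (20 genes called), DESeq2 called 103 genes and 2 members, CPT1A and UCP3, and edgeR without the filter called 140 genes and the same 2. The fit with no replicate block called 6 genes, with CPT1A at -1.47 (adjusted p = 0.0589) and UCP3 at -1.18 (adjusted p = 0.0675), and counts summed per dog called 1. In sample 1 against 0 (0 called), DESeq2 called 77 genes and 1 member, edgeR without the filter 16 and 1, and DESeq2 size factors 4 genes. In sample 2 against 0 (7 called), DESeq2 called 142 genes and 1 member, edgeR without the filter 28 genes, and the fit with no replicate block 0. In sample 2 against 1 (0 called), DESeq2 called 96. Between dogs (614 called, 4 members), DESeq2 called 1419 genes, the model of sample number called 2 members, and libraries of samples 1 and 2 alone 157 genes and 0 members. Leaving out each library or dog in turn gave 4 to 28 genes and 0 to 1 members for insulin against basal, 0 to 8 genes for sample 1, 0 to 13 for sample 2, 0 to 0 for sample 2 against 1, and 236 to 814 genes and 0 to 6 members between dogs (0 without dog 4). Of the dog differences, HADHA passed in 16 of these 17 fits, CPT2 in 13, CPT1B in 9 and ACADVL in 8. The cause of these changes was not tested.

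CPT1A ran from -1.56 to -1.07 (adjusted p 0.0713 to 0.881) and UCP3 from -1.20 to -0.84 (adjusted p 0.0206 to 1) over the 17 fits. Of 1326 recomputed gene values 52 reversed, all of values that had not been called. With no replicate block these were ACADVL (-0.11), HADHA (-0.11), ECI1 (-0.077) and NRIP1 (0.16) in insulin against basal, ACADVL (-0.012) in sample 1, ACADVL (-0.0046) and HADHA (-0.17) in sample 2 against 0, and CPT1B (0.11) and UCP2 (0.016) in sample 2 against 1. With a library or dog left out, insulin against basal ran from -0.046 to 0.24 for ABCD3, -0.10 to 0.60 for ACSL5, -0.27 to 0.98 for FASN and -0.20 to 0.056 for CPT1B. Sample 1 against 0 ran from -0.029 to 0.12 for ACADM, -0.016 to 0.21 for ACADVL and -0.30 to 0.26 for CPT1B. Sample 2 against 0 ran from -0.0051 to 0.30 for ACADVL, -0.36 to 0.042 for CPT1B, -0.0033 to 0.31 for CPT2 and -0.079 to 0.068 for HADHA. Sample 2 against 1 ran from -0.084 to 0.22 for ACADM, -0.22 to 0.19 for ACADVL, -0.35 to 0.18 for CPT1B, -0.14 to 0.21 for SLC25A20 and -0.48 to 0.22 for UCP2. The correlations without sample 2 of dog 1 or basal sample 0 of dog 3 were added after the data were seen. Depth limits CPT1A and UCP2 most, and 3 basal dogs limit every comparison with basal.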
